A study of Homo sapiens with 6 samples.

Results

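MicroRNAs numbered from 1000 to 2999 in the miRNA naming series were described in exosomes, small membrane vesicles shed into the culture medium. The exosomes came from H1299, a human cell line of non-small cell lung cancer. The members were all entries of the deposited count table whose number lies in that range, both arms included, without miR-1246, miR-1290, miR-1275 and the miR-1185 entries. This gave 107 entries, 8.58% of the table, which holds 1140 others. They belong to 85 hairpin names. The series asked how WDR4, the non-catalytic partner of the methyltransferase METTL1, affects which miRNAs are loaded into exosomes. Control cells stably expressed a control short hairpin RNA and the shWDR4 cells a short hairpin RNA against WDR4, both in H1299 cells labelled wild type. Both groups were kept for 48 hours in exosome-free medium. Each group had 3 libraries, and the table used here holds 1 joined count column per group, with 1020282 counts in control and 552913 in shWDR4. No value therefore has a replicate check, no test between the conditions was possible, and every interval covers counting error only. The material is 1 cell line, the knockdown itself is not measured in these small RNA libraries, and no libraries of whole cells were analysed here.

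A miRNA is cut from a hairpin precursor. The enzyme Drosha with its partner DGCR8 frees the hairpin from a longer transcript, Dicer cuts off the loop, and the arm that stays in an Argonaute protein pairs with target RNAs through its seed, bases 2 to 8. The arms are named 5p and 3p after their place in the hairpin. Names are given in order of registration, so the low numbers hold the long-known conserved families, whereas much of the range described here was found by early deep sequencing of human cells. It includes mirtrons, whose hairpins are short introns freed by splicing in place of Drosha, and entries whose sequences resemble Alu repeats or other small RNAs.

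The mature sequences on which the results turn are given 5′ to 3′ from RefSeq on GRCh38.p14, with the seed in capitals. The abundant entries are shown first, since they carry most of the reads and include close pairs, miR-1268a with miR-1268b and miR-1260a with miR-1260b.
miR-1303: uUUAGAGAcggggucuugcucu
miR-1268a: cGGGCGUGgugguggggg
miR-1268b: cGGGCGUGguggugggggug
miR-1180-3p: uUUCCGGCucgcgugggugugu
miR-1260a: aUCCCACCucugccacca
miR-1260b: aUCCCACCacugccaccau
miR-1307-3p: aCUCGGCGuggcgucggucgug
Among members with at least 50 counts over both columns, the entry with the largest difference in each direction follows, miR-1469 on the higher and miR-2392 on the lower side.
miR-1469: cUCGGCGCggggcgcgggcucc
miR-2392: uAGGAUGGgggugagaggug
The 80-base hairpin of miR-1908, from the minus strand, is shown because its arms differed in direction, with the 5p arm and then the 3p arm in capitals.
MIR1908: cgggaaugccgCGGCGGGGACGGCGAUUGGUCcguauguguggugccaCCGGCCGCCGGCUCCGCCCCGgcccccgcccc
The 69-base hairpin of the mirtron miR-1229, on the minus strand of chromosome 5 at 179798278 to 179798346, fills a whole intron and has both arms in capitals too.
MIR1229: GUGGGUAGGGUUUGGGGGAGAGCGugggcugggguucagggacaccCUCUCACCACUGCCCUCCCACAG
A mature sequence was found for 98 of the 107 members. These had 95 distinct seeds. Among the members the seed was shared by miR-1268a and miR-1268b, by miR-1260a and miR-1260b, and by miR-1255a and miR-1255b-5p.

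Most members were rare, and most of their reads came from 6 entries. Of the 107 members, 78 had at least 1 count in control and 90 in shWDR4, and 61 had counts in both. Members seen in control alone numbered 17 and those seen in shWDR4 alone 29. At 1 count the shWDR4 column detected more members although it is shallower. At 5 counts it detected fewer, 59 against 67 in control, and at 10 counts 46 against 48. At the depth of shWDR4, an expected 75.02 members would be seen in control. Of all entries 72.7% were detected in control and 85.1% in shWDR4, and among the members 72.9% and 84.1%, so detection among the members was close to that of all entries. Of the members, 46 had under 10 counts over both columns. The 6 members with the highest mean level, miR-1303, both miR-1268 entries, miR-1180-3p and both miR-1260 entries, held 77.9% of the member counts in control and 83.3% in shWDR4.

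Together the members made up a larger share of the shWDR4 column. Their counts summed to 21656 in control, 2.12% of the column (exact 95% interval 2.09 to 2.15), and to 20618 in shWDR4, 3.73% (3.68 to 3.78). The share was 1.76-fold higher in shWDR4 (1.72 to 1.79). The entries numbered below 1000 with let-7 went from 79.2% to 39.0%, and those numbered 3000 to 3999 from 7.96% to 25.4%. Without miR-3960 alone the latter went the other way, from 7.35% to 4.88%. Levels here are counts per 1000000 counts of the column (CPM), and a fold is shWDR4 over control. Since a column's shares sum to the whole, a larger share of a few very abundant entries leaves less for all others. With the 4 entries that the rule leaves out, the sum of the range would have been lower in shWDR4, with a log2 fold of -0.36 against 0.81, as miR-1290 had 58651 and 6811 counts and miR-1246 had 29379 and 4799. Of these 4, miR-1275 went the other way, with 2083 and 15097.

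**Figure D1:**
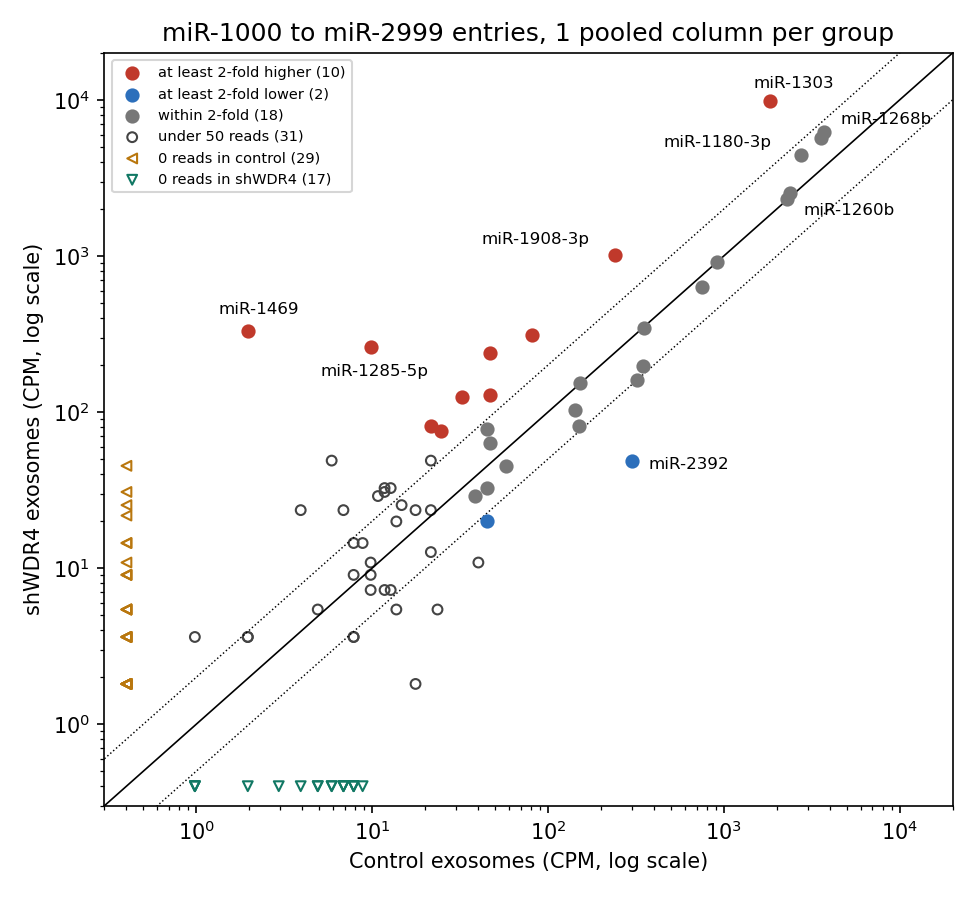
Each point is 1 of the 107 members, with its CPM in the pooled control column on the x axis and in the pooled shWDR4 column on the y axis, both on log scales. The solid line marks equal CPM and the dotted lines a 2-fold difference, and triangles at the margins are members with 0 reads in a column. Filled points have at least 50 counts over both columns, and 10 of them lie above the upper dotted line and 2 below the lower one.

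The members that reached 50 counts in the sum of both columns numbered 30. Of these, 10 were at least 2-fold higher in shWDR4, against 26.1% of all 349 entries with that many counts. Lower by 2-fold or more were 2 of the 30, against 31.5% of those entries, and 18 lay within 2-fold. The members' share of higher entries, 33.3%, was near that background, and their share of lower entries, 6.67%, was smaller. With upper-quartile scaling 5 members were at least 2-fold lower in place of 2. The median log2 fold of the 30 members was 0.26, against -0.37 over all 349 entries. It was -0.84 for the 212 entries numbered below 1000 with let-7, 0.33 for the 22 numbered 3000 to 3999 and 2.85 for the 13 numbered 4251 to 4540. These differences between number ranges were not tested. With upper-quartile scaling the members' median was -0.12. At the edges of the range the table held miR-1180-3p inside and miR-943, with 0 and 1 counts, outside at the low end. At the high end it held miR-2861 inside and miR-3059-3p, with 1 and 2 counts, outside.

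As higher in shWDR4, 18 of the 107 members are marked in the authors' deposited table, against 15.4% of all its entries. As lower, 4 members are marked in the authors' deposited table, against 10.8% of all its entries. All 10 members that were at least 2-fold higher at 50 counts were among those marked in the authors' deposited table. These marks rest on the same pooled counts, so the overlap is no independent check. Fewer than 50 counts lay behind the other 8 members marked higher, and behind 3 of the 4 marked lower, in the authors' deposited table. Those 3 were miR-1226-3p, with 41 and 6 counts, miR-1305, with 24 and 3, and miR-1267, with 18 and 1.

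The most abundant member of the shWDR4 column was miR-1303, whose sequence resembles the Alu repeat. It had 1874 counts in control, 0.184% of the column (0.175 to 0.192), and 5461 in shWDR4, 0.988% (0.962 to 1.01). The CPM was 5.38-fold higher (5.10 to 5.67), and among all entries its rank was 66 in control and 17 in shWDR4. It made up 8.65% of the member counts in control and 26.5% in shWDR4. The hairpin lies on chromosome 5 at 154685776 to 154685861 of GRCh38 and in no annotated gene.

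Both miR-1268 entries and both miR-1260 entries are close pairs, and neither pair differed 2-fold when scaled to column totals. All 18 bases of miR-1268a are the first 18 of miR-1268b, which has 2 more, as the printed sequences show. Counts of miR-1268a were 3666 and 3146, and those of miR-1268b 3767 and 3438. As a pair they went from 7433 to 6584 counts, a 1.63-fold higher CPM (1.58 to 1.69). Without miR-3960 in the totals miR-1268b was past 2-fold (log2 fold 1.08) and miR-1268a just short of it (0.99). Within the pair miR-1268a took 49.3% of the reads in control (48.2 to 50.5) and 47.8% in shWDR4 (46.6 to 49.0), so the intervals overlapped. The split was near even in both columns, and it is not known here how the counting divided reads that match both. The hairpin of miR-1268a lies on chromosome 15 at 22225278 to 22225329 outside any annotated gene, and that of miR-1268b on chromosome 17 at 80098828 to 80098877 within CCDC40, outside its exons.

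The miR-1260 pair differs by U9A, counted from 1 at the 5′ end of miR-1260a, and by 1 further base at the 3′ end of miR-1260b. Counts were 2419 and 1396 for miR-1260a and 2335 and 1286 for miR-1260b. Their joint level was the same within counting error, 4754 and 2682 counts giving a 1.04-fold ratio (0.993 to 1.09). Within the pair miR-1260a held 50.9% in control (49.5 to 52.3) and 52.1% in shWDR4 (50.1 to 54.0). The sequence of miR-1260a ends in CCA, as mature transfer RNAs do, and an overlap with transfer RNA was not tested. The hairpin of miR-1260a lies on chromosome 14 at 77266218 to 77266290, opposite NGB, and that of miR-1260b on chromosome 11 at 96341438 to 96341526, opposite MAML2.

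A few members within protein-coding host genes differed by less than 2-fold. From an intron of B9D1, a gene of the ciliary transition zone, miR-1180-3p had 2819 and 2441 counts, 1.60-fold higher in CPM (1.51 to 1.69). The fold of miR-1307-3p, from an exon of the ATP synthase subunit gene ATP5MD, was 1.00 (0.897 to 1.12), from 936 counts in control and 508 in shWDR4. Its level was thus the same in both columns within counting error, and the next members were likewise level. Counts of miR-1304-3p were 361 and 192, for a fold of 0.981 (0.819 to 1.17). For miR-1273h-3p the counts were 155 and 85 and the fold 1.01 (0.767 to 1.33). The sign of the log2 fold of these 3 and of both miR-1260 entries depended on the scaling. The other members within 2-fold and higher in CPM were miR-1270, with 46 and 43 counts (1.72-fold, 1.11 to 2.67), and miR-1273h-5p, with 48 and 35 (1.35-fold, 0.845 to 2.12).

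**Figure D2:**
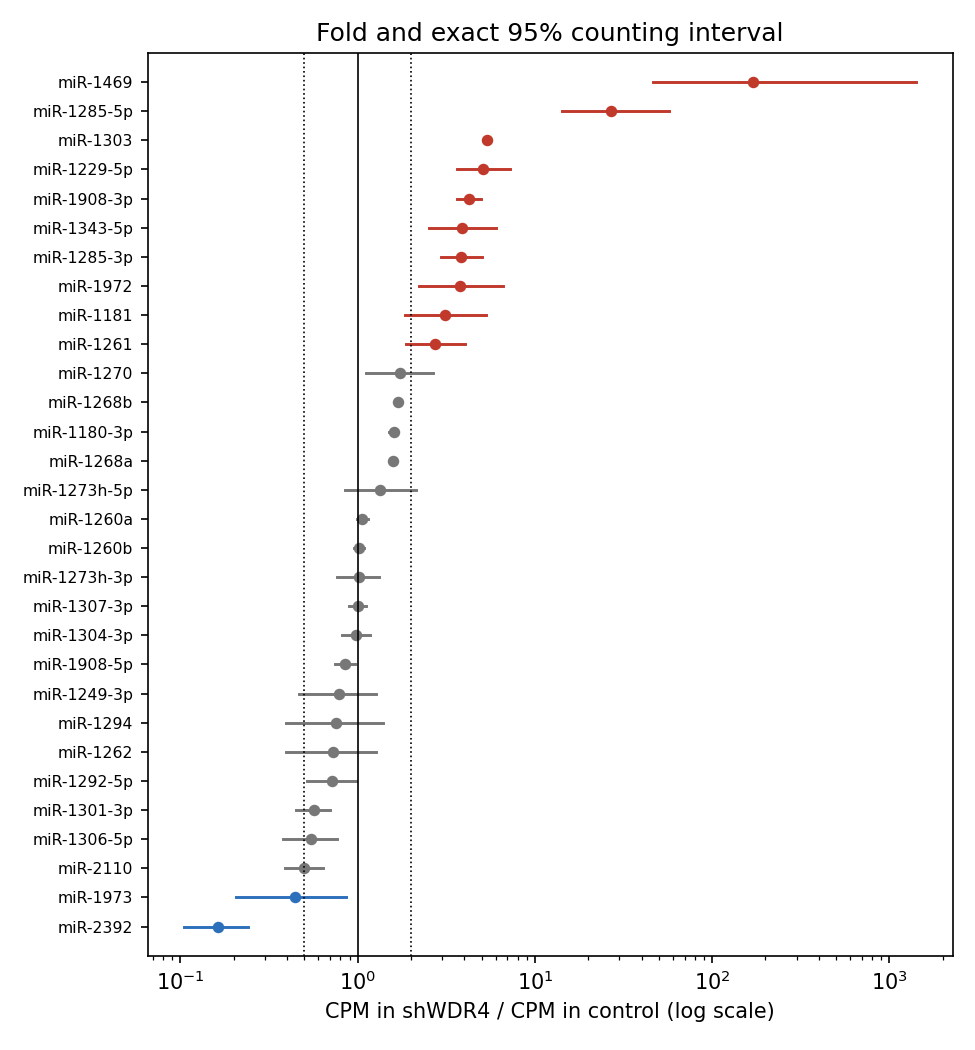
Points give the CPM in shWDR4 over that in control on a log axis for the 30 members with at least 50 counts, and bars the exact 95% counting intervals. Red points are at least 2-fold higher, blue at least 2-fold lower and grey within 2-fold. The folds run from 0.162 for miR-2392 to 169.8 for miR-1469, which has the widest interval because control holds only 2 counts of it.

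The largest difference at 50 counts or more was that of miR-1469, which lies in an exon of NR2F2, a nuclear receptor gene, on chromosome 15 at 96333261 to 96333307. It had 2 counts in control and 184 in shWDR4, a 169.8-fold ratio with a counting interval from 46.3 to 1412. Nearly all of its reads were thus in shWDR4, and the wide interval comes from the 2 control counts. Of its bases 90.9% are G or C.

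Both arms of miR-1285, whose sequence resembles the Alu repeat, were higher in shWDR4, the 5p arm much more. For the 5p arm the counts were 10 and 145, a 26.8-fold higher CPM (14.1 to 57.0). The 3p arm had 83 and 173, which is 3.85-fold higher (2.94 to 5.06). One hairpin of miR-1285-3p lies on chromosome 7 at 92204015 to 92204098 within KRIT1, and another on chromosome 2 at 70252918 to 70253005 outside annotated genes. A further Alu-like entry, miR-1972, went from 22 to 45 counts, 3.77-fold higher (2.22 to 6.60).

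Further members were at least 2-fold higher. From an intron of PDHX, a part of the pyruvate dehydrogenase complex, miR-1343-5p went from 33 to 69 counts, 3.86-fold higher (2.51 to 6.03). Named after their values were seen, miR-1181, in an exon of the HSP90 co-chaperone gene CDC37, went from 25 to 42 counts (3.10-fold, 1.85 to 5.31), and miR-1261, opposite DISC1FP1, from 48 to 71 (2.73-fold, 1.87 to 4.02). The lower bounds of both lie under 2-fold.

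On the lower side miR-2392 stood apart. It had 307 counts in control and 27 in shWDR4, a 6.16-fold lower CPM (4.15 to 9.50). Its hairpin lies on chromosome 14 at 100814491 to 100814574, within MEG3, the maternally expressed long non-coding RNA of the imprinted chromosome 14 domain, outside its exons. The other, miR-1973, went from 46 to 11 counts, 2.27-fold lower (1.16 to 4.85). Its mature sequence also occurs letter for letter in MT-RNR2, the large ribosomal RNA of mitochondria, and its hairpin lies in MTRNR2L13. Without miR-3960 in the column totals its log2 fold was -0.86, within 2-fold.

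Just inside the 2-fold line were 3 members that lie in protein-coding genes. An exonic miRNA of CCDC186, miR-2110, had 328 and 89 counts, 1.997-fold lower (1.58 to 2.55). From an exon of DGCR8 itself, miR-1306-5p had 153 and 45 counts, 1.84-fold lower (1.31 to 2.63). From an intron of the DNA methyltransferase gene DNMT3A, miR-1301-3p had 356 and 109 counts, 1.77-fold lower (1.42 to 2.21). With upper-quartile scaling all 3 were past 2-fold lower. Of the rest, miR-1292-5p lies in NOP56, a core protein gene of small nucleolar RNPs, in an exon of at least 1 transcript. Its 146 and 57 counts gave a 1.39-fold lower CPM (1.02 to 1.92). The folds of miR-1262, with 46 and 18 counts, and miR-1294, with 39 and 16, were 0.722 (0.394 to 1.27) and 0.757 (0.395 to 1.39), whose intervals include no difference. The same holds for miR-1249-3p, with 59 and 25 counts and a 1.28-fold lower CPM (0.789 to 2.13).

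Arm use can be compared without any scaling between columns, because both arms of a hairpin are counted in the same column. Both arms were listed for 22 hairpins, and 12 of them had at least 50 reads in all. The 5p share had separate counting intervals in the columns for 4 of the 12, those of miR-1908, miR-1285, miR-1292 and miR-1226. Over the whole table the same held for 28.7% of the 150 hairpins with both arms listed and as many reads, so the members' count was near that background.

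The arms of miR-1908, from the fatty acid desaturase gene FADS1, differed in which was the more abundant. In control the 5p arm had 766 counts and the 3p arm 244, so 75.8% of the reads were 5p (73.1 to 78.5). In shWDR4 the 5p arm had 351 and the 3p arm 562, or 38.4% (35.3 to 41.7). The 3p arm was 4.25-fold higher in CPM (3.65 to 4.96), whereas the 5p arm was 1.18-fold lower (1.04 to 1.35), a direction that turned without miR-3960 in the totals (log2 fold 0.08). Both arms are printed in capitals in the hairpin above, and the 3p arm has 95.2% G and C against 76.2% for the 5p arm. The hairpin lies on chromosome 11 at 61815161 to 61815240, on the strand of FADS1, in an exon of at least 1 of its transcripts.

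For miR-1285 the 5p share went from 10.8% (5.28 to 18.9) to 45.6% (40.0 to 51.2). The rare miR-1292-3p was not seen in control beside 146 reads of its 5p arm and had 6 counts in shWDR4, so the 5p share was 100% (97.5 to 100) and 90.5% (80.4 to 96.4). The 3p arm of miR-1180 and miR-1307 was dominant in both columns, with 0.248% of the miR-1180 reads on the 5p arm in control (0.0996 to 0.510) and 0 of 2441 in shWDR4, and with 2 counts of miR-1307-5p in each column. For miR-1273h the 5p share was 23.6% (18.0 to 30.1) and 29.2% (21.2 to 38.2), which overlap.

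**Figure D3:**
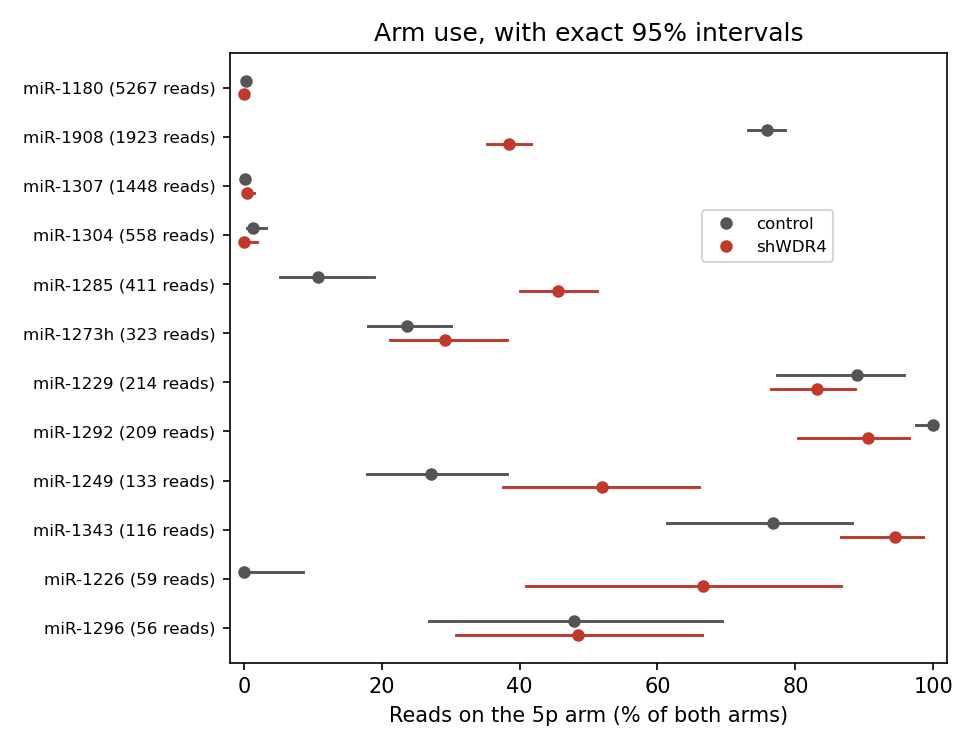
The x axis gives the percentage of a hairpin's reads that fell on its 5p arm, in control (grey) and shWDR4 (red), with exact 95% intervals, for the 12 hairpins with at least 50 reads. The intervals of miR-1908, miR-1285, miR-1292 and miR-1226 are apart, with a 5p share for miR-1908 of 75.8% in control and 38.4% in shWDR4, and for miR-1285 of 10.8% and 45.6%.

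Mirtrons were rare, and their summed level was higher in shWDR4, more so on the 5p arms. The list of 11 mirtrons gave 17 entries, of which 9 were detected in control and 16 in shWDR4. Of all entries 72.7% were detected in control and 85.1% in shWDR4. Mirtron entries seen in shWDR4 alone had from 1 count, as miR-1225-5p, to 25, as miR-1236-5p. Only miR-1229-5p reached 50 counts, and it was at least 2-fold higher, as were 26.1% of all entries with that many counts. Their counts summed to 146 and 280, a 3.54-fold higher CPM (2.89 to 4.35). For 10 hairpins of the list, the copies of miR-1233 counted singly, the hairpin began and ended exactly at the ends of an intron of 69 to 102 bases. No hairpin of another member with a position did so.

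The sum over the 9 entries of 5p arms was 81 counts in control and 221 in shWDR4. This is a 5.03-fold higher CPM (3.89 to 6.58), and 8 of the 9 had the higher CPM in shWDR4, among them miR-1225-5p with 0 and 1 counts and miR-1227-5p with 2 in each column. The 8 entries of 3p arms summed to 65 and 59, 1.67-fold higher (1.16 to 2.42). Of the mirtron reads, 54 in control and 160 in shWDR4 belong to miR-1229, in an intron of the glycosyltransferase gene MGAT4B. Its 5p arm was at 47.0 CPM in control and 240.5 CPM in shWDR4, 5.11-fold higher (3.65 to 7.27). Its 3p arm had 6 and 27 counts, 8.30-fold higher (3.36 to 24.6). Without miR-1229 the 5p arms summed to 33 and 88, 4.92-fold higher (3.26 to 7.58), and the 3p arms to 59 and 32, with a fold of 1.00 (0.630 to 1.56).

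Some of the rarer mirtrons had their arms in different columns. In miR-1226, from an intron of the RNA helicase gene DHX30, the 5p arm had 0 and 12 counts and the 3p arm 41 and 6, so the 5p share was 0% (0 to 8.60) and 66.7% (41.0 to 86.7). In miR-1228, from the endocytic receptor gene LRP1, the 5p arm had 0 and 17 counts and the 3p arm 6 and 0. The 5p arm of miR-1236, from NELFE, a subunit of the negative elongation factor, had 0 and 25 counts. Its CPM was 15.4-fold higher with the floor of 3 counts over the group in place of 0, and its exact interval began at 11.6-fold. The opposite case was miR-1224-5p, with 12 and 4 counts beside 12 and 18 for its 3p arm. The arms differ in base content, as the printed miR-1229 hairpin shows. In the 9 entries of 5p arms the median share of G was 59.1%, in the 7 entries of 3p arms with a sequence 10.0%, where C made up 52.4%. Of those 7, 6 end in AG, the bases with which an intron ends.

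**Figure D4:**
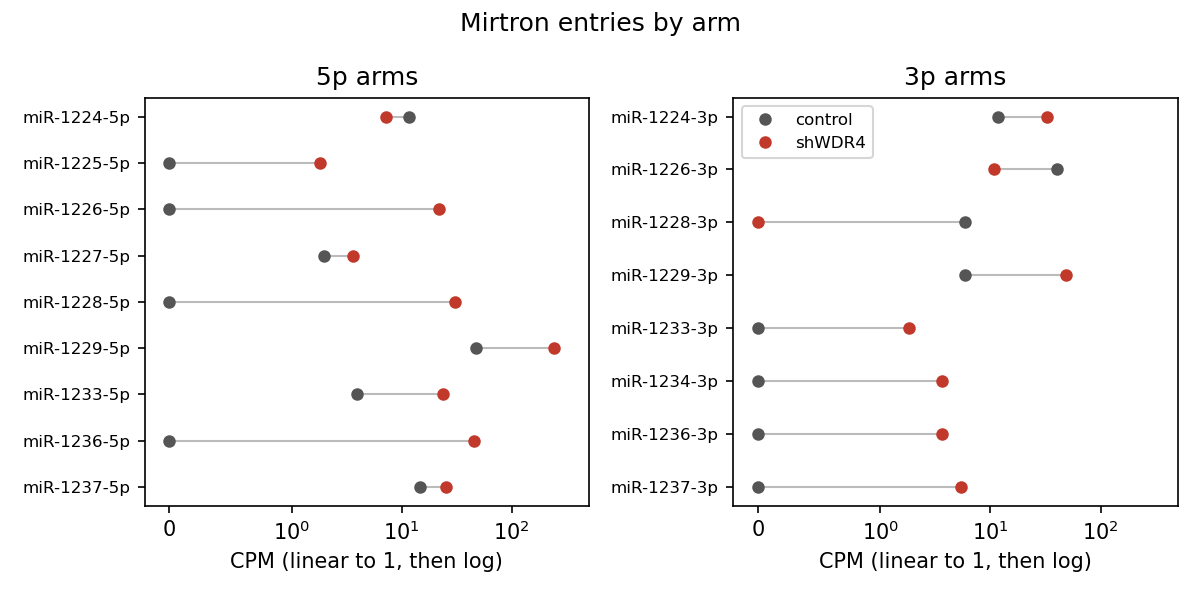
Each row is 1 mirtron entry, with its CPM in control (grey) and shWDR4 (red) on an axis that is linear up to 1 and logarithmic above, 5p arms on the left and 3p arms on the right. Of the 5p arms 8 of 9 lie higher in shWDR4, only miR-1229-5p of them with at least 50 counts, and miR-1224-5p is the exception. The share of all entries that lie higher was not counted. Among the 3p arms miR-1226-3p and miR-1228-3p lie lower.

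The list of small RNA and repeat overlaps, with miR-1303, miR-1268, miR-1260, miR-1285, miR-1273, miR-1972 and miR-1973 present, had 12 entries and 11 with at least 50 counts. Of the 11, 4 passed 2-fold on the higher side, 1 on the lower side and 6 lay within it, with a median log2 fold of 0.66. Over all 349 entries 26.1% were higher and 31.5% lower, so the count of higher entries was near the background. Their summed share was 1.41% in control (1.39 to 1.44) and 2.75% in shWDR4 (2.71 to 2.80), 1.95-fold higher (1.90 to 1.99). Within that sum miR-1303 alone went from 0.184% to 0.988% of the column. The list was not of 1 kind in this respect, since miR-1260 was level and miR-1973 lower. Overlap with repeats was not checked against a repeat annotation.

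The list of the PVT1 locus had 2 entries, with 0 and 14 counts for miR-1207-5p, 8.61-fold higher with the floor in place of 0, and 8 and 2 for miR-1206. From the list of imprinted and placental clusters 4 entries were present, with 5 counts in control and 4 in shWDR4 in all. That list did not include miR-2392, from the imprinted chromosome 14 domain, which had 307 and 27 counts as given above. Both lists are too thin for a direction.

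A member of CDK9, the kinase of transcription elongation, lay beside the largest entry of the shWDR4 column. The hairpin of miR-2861, on chromosome 9 at 127785918 to 127786007, shares 6 bases with that of miR-3960 at 127785833 to 127785923, both in an exon of CDK9 and on the same strand. The counts of miR-2861 were 7 and 0, while those of miR-3960, which is no member, were 6297 and 113649. The much higher level of miR-3960 in shWDR4 was thus not seen in its neighbour, a comparison made after the values were seen, at a depth where a count of 0 allows 3 counts or 5.43 CPM in shWDR4.
miR-2861: gGGGCCUGgcggugggcgg

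Members seen in 1 column were all rare, with at most 25 counts in shWDR4 and 9 in control. Besides the mirtrons and miR-1207-5p, the most abundant of the 29 at 0 in control were miR-1587 and miR-1913 with 8 counts each, 4.92-fold higher with the floor in place of 0. Of the 17 at 0 in shWDR4, miR-1293 had 9 control counts, and miR-1255b-5p, miR-2113 and miR-2277-3p had 8 each. Next came miR-1180-5p, miR-1286 and miR-2861 with 7. The exact counting interval of the fold included no difference for all of these 17 but miR-1293, and there it began at 1.07-fold lower. On the other side it began at 11.6-fold higher for miR-1236-5p, at 6.12-fold for miR-1207-5p and at 3.15-fold for miR-1587 and miR-1913.

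Hairpins of the members were spread over the genome, mostly inside genes. Of the 98 members with a position, 51 lay in introns and 29 in exons of a gene on the same strand, 6 opposite a gene and 9 outside genes, and 3 had hairpins in places of several kinds. Here an exon is one of any annotated transcript, so a retained intron counts as exon. The 11 intronic members with at least 50 counts had a median log2 fold of 0.02 and the 9 exonic ones -0.24. The 9 members outside genes summed to 5562 and 8625 counts, 2.86-fold higher (2.77 to 2.96), and most of these reads were of miR-1303 and miR-1268a. The mature sequence of 36 of the 98 members occurred exactly in a GENCODE transcript other than a miRNA gene. Such a match can be the exon in which the hairpin itself lies, as for miR-1181 in CDC37, miR-1307-3p in ATP5MD and miR-2110 in CCDC186. Other matches lay in a gene that does not hold the hairpin, as for miR-1285-3p in GPALPP1, miR-1972 in DYNC1H1 and miR-1973 in MT-RNR2. These kinds of match were not counted apart, so the number does not show a second origin. Among those with at least 50 counts an exact match was found for 12 of 27 members, 44.4%, and for 73 of 284 other entries, 25.7%.

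Members were richer in G and C than the table as a whole, though at 50 counts or more not than the next ranges. Over all entries with a sequence, the median GC content was 63.6% for the members and 57.1% for the table. There it was 58.7% for entries numbered 3000 to 3999 and 63.2% for those numbered 4251 to 4540. The median GC content was 63.6% for the 27 members with at least 50 counts and a sequence, and 54.5% for the 311 such entries of the table. It was 68.9% for those numbered 3000 to 3999 and 70.7% for those numbered 4251 to 4540. Of the 18 members with at least 60% GC, 6 were at least 2-fold higher and 1 lower, with a median log2 fold of 0.38. Of the 9 below 60%, 3 were higher and 1 lower, with a median of 0.02. Among the 311 entries, 121 had at least 60% GC, of which 52 were higher and 12 lower, with a median of 0.66. The 190 entries below 60% included 30 higher and 82 lower ones, with a median of -0.82. Spearman's rho of GC content and log2 fold was 0.34 over the 27 members and 0.56 over the 311 entries. These are descriptions across miRNAs that all come from the same pair of pooled columns. The higher members include miR-1261, at 42.1% GC, as well as miR-1908-3p, at 95.2%.

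The motif GGAG, reported in exosome sorting by hnRNPA2B1 in other cells, was searched in the mature sequence as written. It occurred in 4 of the 27 members, 14.8%, against 19.9% of the 311 entries. The 4 were miR-1270, miR-1301-3p, miR-1229-5p and miR-1343-5p, of which 2 were at least 2-fold higher and none lower, against 20 higher and 13 lower of the 62 entries with the motif in the table. A run of GGG occurred in 14 members, 51.9%, against 45.0% of the entries, with a median log2 fold of 0.67 beside 0.02 for the 13 without. Over the whole table these medians were 0.21 and -0.73.

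**Figure D5:**
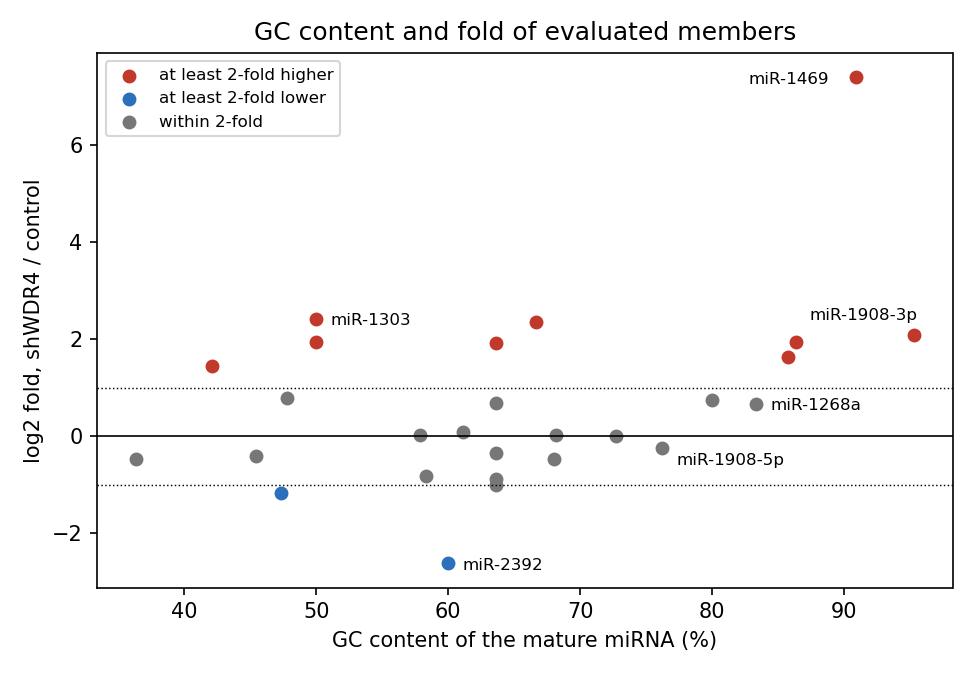
The GC content of the mature sequence is plotted against the log2 fold of shWDR4 over control for the 27 members with a sequence and at least 50 counts. Dotted lines mark a 2-fold difference. Members at least 2-fold higher lie from 42.1% to 95.2% GC, so they span most of the range of the x axis.

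The summed share of markers of other cell types also differed between the groups, and their part in the results above was not tested. Of 10 such entries, 9 were detected in control and 8 in shWDR4, and their sum went from 1.25% to 0.301% of the counts, chiefly the endothelial miR-126-3p. The shares of miR-150-5p (0.00235% and 0.00326%) and miR-451a (0 and 3 counts) went the other way. At 0 were miR-451a in control and miR-133a-3p and miR-206 in shWDR4. Of 5 epithelial miR-200 family entries only miR-200c-3p and miR-141-3p were listed, with 45 and 7 counts in sum. Counts of miR-21-5p and miR-31-5p, common in lung cancer lines, summed to 11659 and 3242, or 1.14% and 0.586% of the columns. In pooled exosomes a changed number of vesicles and a changed amount of a miRNA per vesicle cannot be told apart, nor can sorting and the level in the cells.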

How the data were processed

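The members and lists were chosen with earlier results of these data known. Per the file headers, each of 2 deposited columns joined the 3 libraries of a group as whole-number read counts per mature miRNA, not normalized by the authors. The submitters' processing notes list Bowtie, edgeR, FastQC, SAMtools and Trim Galore without a version. Which genome build and miRNA annotation were used, and how shared reads were handled, is not given in the sources used here. Per the file headers, the authors' deposited table also holds a normalized log2 fold of control over shWDR4 and a Storey q-value per miRNA, with a mark for entries past their q-value and fold limits. The fold was recomputed exactly from the column totals for entries with counts in both columns.

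Counts were divided by the column total (1020282 and 552913) to give CPM. An entry was evaluated when its counts in both columns summed to 50 or more, and was called at a 2-fold difference. The planned edgeR quasi-likelihood test needs libraries and was not run, so no p-value was computed. Intervals are exact 95% Clopper-Pearson intervals. Those of folds treat the sum of an entry's counts as given. Their coverage was tested on counts simulated with counting error alone, which cannot check variation between libraries. A count of 0 allows 3 counts, 2.94 CPM in control and 5.43 CPM in shWDR4. Amplified reads are not independent molecules, so intervals and floors cover counting error only. Alternative scale factors came from edgeR 4.0.16.

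Sequences are from RefSeq (GRCh38.p14). Hairpin positions are from the same table or GENCODE release 29 (GRCh38), and host genes from GENCODE. All 105 hairpin positions that could be compared contained the RefSeq mature position. Named entries were the 15 evaluated members with the highest mean CPM, the 8 largest folds in each direction, both arms where both were evaluated, the 5 most abundant at 0 in a column, and evaluated members of the lists.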

Additional observations from a re-analysis of the deposited data

How the results depend on the processing

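Every log2 fold shifted by 0.16 with the trimmed mean of M values, by 0.11 with median ratio scaling, by -0.38 with upper-quartile scaling and by 0.32 without miR-3960. The log2 fold of the summed members, 0.81, became 0.97, 0.92, 0.43 and 1.14 in that order, 0.50 without miR-1303 (chosen after seeing the data) and -0.36 with the range's 4 exceptions kept in. The 10 members at least 2-fold higher numbered 12 without miR-3960, 18 at a minimum of 20 counts, 3 at 200 and 28 with no minimum. The 2 lower ones numbered 5 with upper-quartile scaling, 1 without miR-3960, 4 at a minimum of 20 counts, 1 at 200, 8 with no minimum and 4 with the exceptions kept in. The median, 0.26, was 0.66 at a minimum of 20 counts, 0.02 at 200 and -0.12 with upper-quartile scaling. At 10 counts 48 members were detected in control and 46 in shWDR4, at 5 counts 67 and 59. Of the 10 named members past 2-fold, 9 stayed past it with all 4 other scalings, and of those within 2-fold 6 changed sign with a scaling. The cause was not tested. No paired analysis was possible because the columns hold no value per library, and leaving out a replicate could not be run for the same reason. Members with few counts are limited by depth, 46 of 107 having under 10.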
